A study of Mus musculus with 12 samples.

Results

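Krt25, Krt27 and Krt71 encode keratins of the inner root sheath, and Padi3 encodes an enzyme that modifies proteins of that sheath. All probe sets that the platform annotation assigns to these genes were taken from the deposited table. They cover 4 of the 12393 genes on the array, with 4 of its 22690 probe sets, 1 for each gene: 1418173_at for Krt25, 1449378_at for Krt27, 1448457_at for Krt71 and 1419767_at for Padi3. The study profiled mouse epidermal keratinocytes on 12 Affymetrix arrays and compared cultured cells with skin tissue, and newborn with older animals. The first group comprised 5 primary keratinocyte cultures from newborn mice, each from cells of 5 mice of the same genotype, unpassaged and held in low calcium medium for up to 3 days. Culture replicates 1 and 2 were mixed C57/DBA/FVB, and culture replicates 3 to 5 were FVB. The second group was skin of newborn FVB mice (2 samples), and the third was skin of mice aged 30 days of mixed C57/DBA/FVB strain (5 samples). Strain and age thus cannot be told apart within skin. No transgene or treatment is named in the labels used here. Nothing in the labels assigns the skin samples to different animals. The p-values therefore reflect sample-to-sample spread, part of which could be technical.

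The inner root sheath is the rigid tube of epithelial cells that surrounds a growing hair and guides it to the skin surface. Its cells build filaments from pairs of type I keratins, such as those of Krt25 and Krt27, and type II keratins, such as that of Krt71. Trichohyalin (Tchh) then fills the space between the filaments. Peptidylarginine deiminase 3, the product of Padi3, converts arginines of trichohyalin to citrulline, and transglutaminase 3 (Tgm3) cross-links the modified protein. In humans, variants of PADI3, TGM3 and TCHH are known from uncombable hair syndrome, and mouse Krt71 is the gene of the wavy-haired Caracul mutants.

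The regions upstream of the 4 genes are shown to compare the letters before genes that were all low in culture and high in skin. Krt25 and Krt27 lie on chromosome 11 in the row Krt25, Krt26, Krt27, Krt28. Krt71 lies on chromosome 15 beside Krt72 and Krt73, and Padi3 on chromosome 4 between Padi4 and Padi1. Each sequence holds the 250 bases before the annotated start of the gene (RefSeq, GRCm38.p6), printed on the strand of the gene. Capitals mark the letters TATAAA, the core of a TATA box, and AGATAA, a word bound by GATA factors such as Gata3, which acts in the inner root sheath lineage.
Krt25 (chr11:99322952-99323201, minus strand): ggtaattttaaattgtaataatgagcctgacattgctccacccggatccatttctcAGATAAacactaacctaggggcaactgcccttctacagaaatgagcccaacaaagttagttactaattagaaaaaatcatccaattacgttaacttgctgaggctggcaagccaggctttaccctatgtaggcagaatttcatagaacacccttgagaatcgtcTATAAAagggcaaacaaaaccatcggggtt
Krt27 (chr11:99351119-99351368, minus strand): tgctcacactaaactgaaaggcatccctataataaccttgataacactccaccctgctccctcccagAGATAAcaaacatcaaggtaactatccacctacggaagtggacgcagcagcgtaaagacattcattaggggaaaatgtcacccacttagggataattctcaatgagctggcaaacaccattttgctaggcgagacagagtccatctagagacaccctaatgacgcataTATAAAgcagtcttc
Krt71 (chr15:101743098-101743347, minus strand): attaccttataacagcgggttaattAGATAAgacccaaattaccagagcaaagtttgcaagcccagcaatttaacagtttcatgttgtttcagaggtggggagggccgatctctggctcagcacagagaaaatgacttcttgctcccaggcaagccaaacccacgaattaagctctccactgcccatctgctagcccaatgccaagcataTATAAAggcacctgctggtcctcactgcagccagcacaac
Padi3 (chr4:140810649-140810898, minus strand): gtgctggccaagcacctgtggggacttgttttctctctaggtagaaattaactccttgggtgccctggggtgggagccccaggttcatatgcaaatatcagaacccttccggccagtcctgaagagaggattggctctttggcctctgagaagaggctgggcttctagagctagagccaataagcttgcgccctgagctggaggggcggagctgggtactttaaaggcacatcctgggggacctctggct
The letters TATAAA stood upstream of the 3 keratin genes, starting 30 bases before the start of Krt25, 15 before that of Krt27 and 40 before that of Krt71. The letters AGATAA started 194, 183 and 225 bases before the same starts. Neither word was found in the 250 bases upstream of Padi3. Both words were searched on both strands (reverse TTTATA and TTATCT), do not overlap, and were picked after these sequences had been read. Over 32851 promoter regions of this length in the RefSeq table, 12.4% held TATAAA, 9.99% held AGATAA and 1.92% held both. Of the 8 inner root sheath keratin genes 7 were in the table, of which 7 held TATAAA and 4 held AGATAA. Both counts include Krt25, Krt27 and Krt71, from whose sequences the words were picked. Among the others, Krt26, Krt28, Krt72 and Krt73 held TATAAA, and only Krt73 held AGATAA. These matches describe letters and are not evidence of binding.

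**Figure D1:**
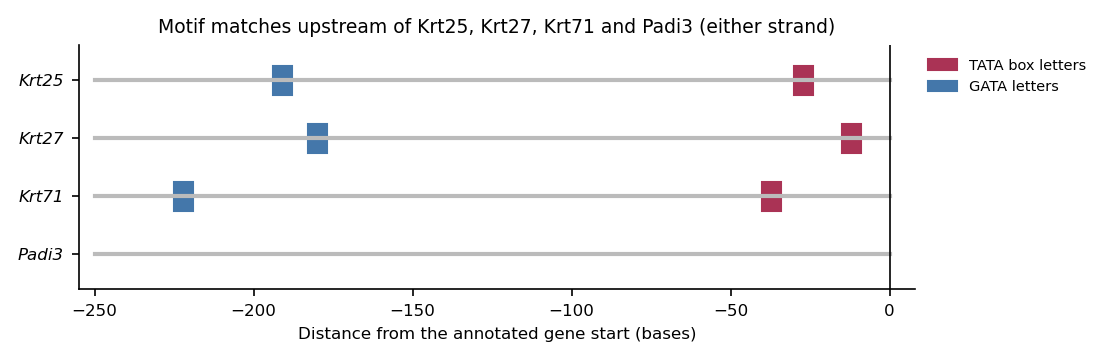
Matches to the TATA box and GATA letters (coloured blocks) in the 250 bases upstream of each gene, by distance in bases from the annotated gene start. The 3 keratin genes each have 1 block of each kind, with the TATA box letters starting 15 to 40 bases before the start, and Padi3 has none.

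The arrays and their labels were checked first. Array medians lay between 5.86 and 6.01 on the log2 scale. Cultures carried the basal keratins Krt5 (13.14 ± 0.14, SD, n = 5) and Krt14 (13.37 ± 0.09). The basal keratin Krt15 went the other way, at 5.78 ± 0.23 in culture against means of 10.44 in newborn and 10.70 in 30-day skin. The mean of 6 fibroblast genes was 5.51 to 6.17 in culture against 11.21 to 11.68 over both skin groups. For 3 adipocyte genes it was 3.68 to 4.13 against 10.54 to 11.34, for 4 skeletal muscle genes 4.91 to 5.43 against 11.16 to 11.79, and for 4 macrophage genes 5.15 to 5.51 against 8.0 to 8.35. Melanocyte genes did not share this gap. The mean of 4 such genes was 7.58 to 9.81 in culture, against 8.71 to 8.73 in newborn and 9.47 to 10.01 in 30-day skin. Skin tissue thus held many cell types besides keratinocytes. In such bulk samples fewer cells of a type and less RNA per cell cannot be told apart. Replicate 1 of 30-day skin differed from its group in measures of RNA quality: its 3' actin control lay 1.74 above the 5' control, against 0.67 to 0.82 in the other 4 arrays, and its 3' 18S rRNA control read 8.14 against 5.97 to 6.51. In newborn skin the actin gap was 0.99 and 1.14, also above those 4 arrays, and in culture it was 0.21 to 0.74. This measure thus differed between the ages as well, and its part in the age differences was not tested. The main age differences are given with and without replicate 1 of 30-day skin.

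All 4 genes were near the low end of their range in culture, high in newborn skin and higher still in most 30-day skin. Krt25 read 4.12, 4.20, 4.46, 4.59 and 4.59 in culture replicates 1 to 5, 11.75 and 11.82 in newborn skin, and 12.39, 12.70, 12.42, 12.45 and 12.56 in replicates 1 to 5 of 30-day skin (RMA values, log2). The 3 groups did not overlap, and no 30-day array stood apart.

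Krt27 read 4.89, 4.98, 5.02, 5.17 and 5.11 in culture, 11.82 and 11.81 in newborn skin, and 11.80, 12.71, 12.61, 12.65 and 12.76 in 30-day skin. Replicates 2 to 5 of 30-day skin stood above both newborn arrays, whereas replicate 1 lay at their level and slightly below them. Krt71 read 5.94, 5.75, 5.78, 5.75 and 5.61 in culture, 12.04 and 12.07 in newborn skin, and 12.20, 13.18, 13.10, 12.99 and 12.83 in 30-day skin. Its groups did not overlap, and again replicate 1 of 30-day skin was the array closest to newborn skin.

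Padi3 read 6.45, 6.6, 6.70, 6.69 and 6.52 in culture, 9.56 and 9.61 in newborn skin, and 9.75, 10.92, 10.82, 11.18 and 11.25 in 30-day skin. Its groups did not overlap either, with replicate 1 of 30-day skin next to the newborn arrays. The order culture, newborn skin, 30-day skin held for the group means of all 4 genes. Newborn and 30-day skin overlapped only for Krt27, through replicate 1.

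**Figure D2:**
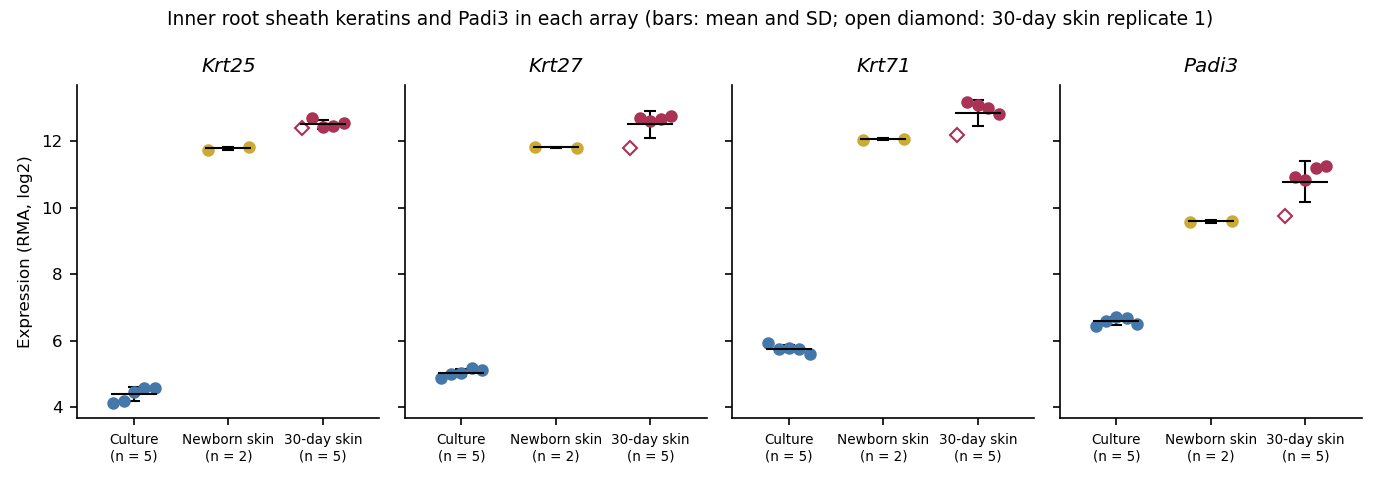
Expression (RMA, log2) of Krt25, Krt27, Krt71 and Padi3 in each of the 12 arrays by group, with the mean and SD as bars and replicate 1 of 30-day skin as an open diamond. Cultures sit between 4.12 and 6.70 and skin between 9.56 and 13.18; the diamond lies near the newborn arrays for Krt27, Krt71 and Padi3 but with its own group for Krt25.

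The comparison of culture with newborn skin asked how the genes differ between tissue and cultured keratinocytes of mice of the same age. For the 2 mixed-strain cultures strain differed too, since the newborn skin was FVB. All 4 genes were lower in culture. Krt25 averaged 4.39 ± 0.22 (SD, n = 5) in culture and 11.78 ± 0.05 (SD, n = 2) in newborn skin, a log2 difference of -7.39 ± 0.14 (SE, adjusted p = 9.3e-13, limma). Krt27 differed by -6.78 ± 0.21 and Krt71 by -6.29 ± 0.20 (SE, adjusted p = 3.43e-11 and 5.58e-11, limma). Padi3 went from 9.59 ± 0.04 (SD, n = 2) in newborn skin to 6.59 ± 0.11 (SD, n = 5) in culture, a difference of -3.0 ± 0.29 (SE, adjusted p = 2.92e-06, limma). All 4 probe sets were thus called lower, against 14.7% of all tested probe sets, and in all 4 the arrays did not overlap, against 20% of probe sets lower without overlap.

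Against 30-day skin, where age and, for 3 cultures, strain differ as well, the differences were -8.11 ± 0.11 for Krt25, -7.47 ± 0.16 for Krt27, -7.09 ± 0.15 for Krt71 and -4.19 ± 0.22 for Padi3 (SE). The adjusted p-values ran from 5.27e-15 for Krt25 to 3.48e-09 for Padi3 (limma). Here 4 of 4 were called lower against 18.2% of all tested probe sets. In lists of related genes, 4 of 4 sheath keratins, 3 of 4 deiminases and 7 of 7 partner genes were lower, against 21.4% of all genes. The first 2 counts include the 4 genes themselves. Beside these, Krt72, Padi1 and Padi4 were lower and Padi2 was not called. Both comparisons use the same cultures, so they are not independent.

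Genes restricted to other organs, such as the sperm protamine gene Prm1 and the glucagon gene Gcg, give a guide to the signal of a probe set without its transcript. Their 15 probe sets read between 4.10 and 6.75 in the cultures, and every culture value of the 4 genes fell inside that range. The median of their culture means was 4.98, and the top of the range came from Ins2 (6.29 to 6.75). Padi3, at 6.45 to 6.70 in culture, lay near that top and at the 60.55 to 64.48 percentile of probe sets in those arrays. Background differs between probe sets and was not measured for these 4, so the sizes of the differences from culture may be set by it and are not ranked between genes. Whether a low level remained in culture, of Padi3 in particular, thus cannot be told here.

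**Figure D3:**
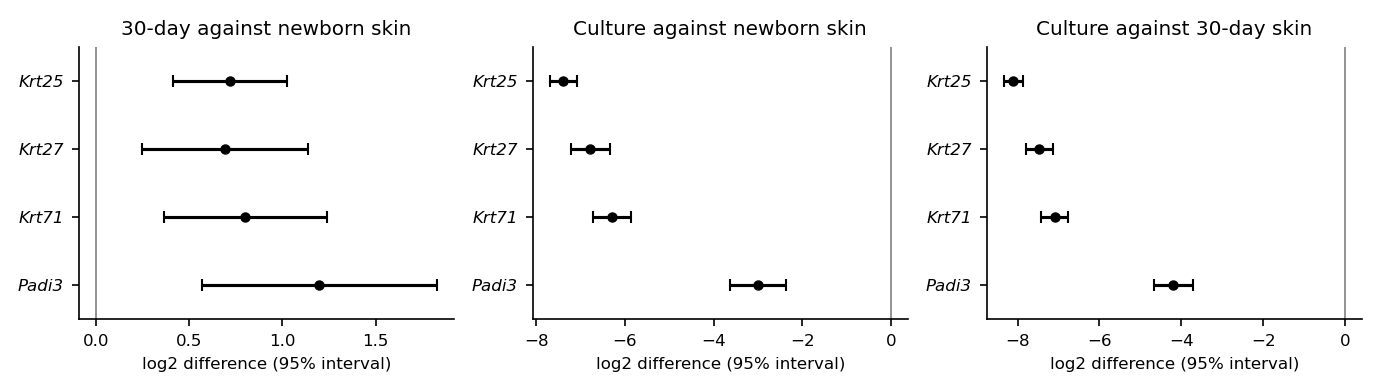
Log2 differences (points) with 95% confidence intervals from limma for the 4 genes in the comparisons of 30-day with newborn skin, culture with newborn skin and culture with 30-day skin; the scales of the panels differ. The 3 keratins lie between -8.11 and -6.29 in the culture panels and Padi3 at -3.0 and -4.19, while the age differences lie between 0.69 and 1.20.

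Newborn and 30-day skin were then set against each other, a contrast of age in which strain differs too. All 4 genes were higher in 30-day skin. Krt25 rose by 0.72 ± 0.14 on the log2 scale (SE, 95% interval 0.41 to 1.02, adjusted p = 0.00475, limma), or 1.65-fold. Krt27 rose by 0.69 ± 0.21 (adjusted p = 0.0437) and Krt71 by 0.80 ± 0.20 (SE, adjusted p = 0.0202). Padi3 rose by 1.20 ± 0.29 (SE, 95% interval 0.57 to 1.83, adjusted p = 0.0167), or 2.29-fold. The 4 calls of 4 stand against 4.75% of all tested probe sets called higher, and arrays did not overlap for 3 of the 4 against 14.6%. Markers of other cells differed in the same contrast. All 3 endothelial genes were lower (median -1.07), as were 2 of 6 fibroblast genes (Lum -1.06 and Pdgfra -1.11) and 1 of 3 adipocyte genes (Adipoq -1.29). Of 6 suprabasal genes, Krt1 (-2.65), Krt10 (-1.21) and Lor (-0.72) were lower and Krt77 (3.49) and Ivl (1.0) higher. Over all genes, 8.91% were called lower and 5.46% higher in this contrast. No muscle, macrophage or melanocyte gene passed, although all 4 melanocyte genes were higher in each 30-day array than in newborn skin (median 1.12). The same lack of overlap held for 1872 of all 12393 genes. The part of cell content in the age differences was not tested.

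Single arrays decided some of these calls. Without replicate 1 of 30-day skin, the differences of Krt27, Krt71 and Padi3 grew to 0.87, 0.96 and 1.46 (adjusted p = 8.71e-05, 0.000125 and 1e-05, limma), while that of Krt25 was 0.75 (adjusted p = 0.00407). Without any single one of replicates 2 to 5 the call on Krt27 was lost (adjusted p = 0.0779 to 0.086). Without replicate 1 or replicate 2 of newborn skin none of the 4 calls was kept, although the differences stayed between 0.68 and 1.22. The lone newborn array is then assumed to vary like the other groups, and the adjusted p of Krt25 was 0.0687 or 0.0528 (limma). Beside this, the mean of 19 genes of epithelial junctions was 8.67 and 8.73 in newborn skin and 8.78 to 9.23 in 30-day skin. While 5.46% and 8.91% of all genes were called higher and lower, 5 and 0 of these junction genes were. With arrays centred on these genes, which turns the median of all genes to -0.43, the differences were 0.30 for Krt25, 0.27 for Krt27, 0.38 for Krt71 and 0.78 for Padi3. Padi3 alone then passed the test (adjusted p = 0.0122, limma). With strain as a covariate only Krt25 passed (1.11, adjusted p = 0.000535, limma). The strain term of this fit rests on cultured cells alone, because strain and age cannot be told apart within skin. For Krt25 it was -0.39 (mixed-strain minus FVB), from culture values inside the range of genes restricted to other organs. Whether that term applies to skin was not tested, so 1.11 cannot be read as an age rise freed of strain. With close arrays averaged, both newborn arrays among them, the differences were 0.70 for Krt25, 0.57 for Krt27, 0.69 for Krt71 and 1.03 for Padi3.

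Whether the 4 genes rose by unequal amounts was asked from their differences within each array. The age difference of Krt27 minus that of Padi3 was -0.51, that of Krt71 minus Padi3 was -0.40 and that of Krt25 minus Padi3 was -0.48, so that Padi3 had the largest rise of the 4. Among the keratins, the same quantity was 0.03 for Krt25 minus Krt27, -0.08 for Krt25 minus Krt71 and -0.11 for Krt27 minus Krt71. Of the 6 pairs none passed a two-sided exact permutation test over the 7 skin arrays. The lowest p was 0.0952 (0.286 after Benjamini-Hochberg adjustment), for Krt27 and Krt71 against Padi3, which is the smallest p of this test, as it doubles the one-sided value. With the absolute difference as the statistic, which allows an exact p of 0.0476, the lowest was also 0.0952 (0.286 adjusted). For both pairs the within-array differences of the ages did not overlap. Neither equal nor unequal rises are shown by these tests. The 3 keratins averaged 11.78 to 12.06 in newborn skin and Padi3 9.59, and the part of this starting level in the rises was not tested.

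Krt72, the other inner root sheath keratin with a probe set, followed the same order of groups. It read 5.81 to 6.15 in culture, 9.32 and 9.63 in newborn skin, and 9.98, 11.38, 11.28, 11.63 and 11.74 in replicates 1 to 5 of 30-day skin. Replicate 1 was again the 30-day array next to newborn skin. Krt72 rose with age by 1.73 ± 0.35 (SE, adjusted p = 0.00527, limma), or by 2.03 without replicate 1 (adjusted p = 2.04e-06), and was lower in culture than in newborn skin, with a log2 difference of -3.47 (adjusted p = 3.58e-06). Krt26, Krt28, Krt73 and Krt74 were not analysed here.

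Among the deiminases, Padi1 and Padi4 were measured beside Padi3, as was Padi2. Padi1, an isoform of epidermis and follicle, averaged 4.91 ± 0.21 in culture, 6.67 ± 0.29 in newborn skin (SD, n = 5 and 2) and 8.15 ± 0.73 in 30-day skin (SD, n = 5). In culture its log2 difference from newborn skin was -1.75 (adjusted p = 0.00186), and with age it rose by 1.48 (adjusted p = 0.0169, limma), or by 1.73 without replicate 1 (adjusted p = 0.000797). Padi4, best known from neutrophils, rose by 2.35 ± 0.37 with age (SE, adjusted p = 0.001, limma), from 4.89 and 5.11 in newborn skin to 6.45, 7.47, 7.52, 7.56 and 7.75 in 30-day skin. Without replicate 1 it rose by 2.58 (adjusted p = 0.000101, limma). In culture it read 5.27 to 6.68, and its difference from newborn skin was 0.85 (adjusted p = 0.0991, limma). Padi2, an isoform of muscle and brain, read between 5.58 and 6.10 over all 12 arrays and differed by -0.19 with age (adjusted p = 0.419, limma). In total 3 of 4 deiminase genes, Padi3 among them, were called higher in 30-day skin, against 5.46% of all genes. Without either newborn array, with only the arrays compared, the replicate block or a threshold of 0.01, 1 was. With the strain covariate or close arrays averaged 0 were, and under epithelial centring 3 were higher and 1 lower. Their median was 1.34, against -0.01 over all genes.

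Of 7 partner genes of the sheath and cornified layers, 2 rose with age and 2 fell, with a median of 0.31, against 5.46% and 8.91% of all genes. Tchh rose from 9.93 and 10.02 in newborn skin to 11.34, 11.44, 11.14, 10.98 and 11.22 in 30-day skin, by 1.25 ± 0.21 (SE, adjusted p = 0.00148, limma). Replicate 1 of 30-day skin was inside the range of its group for Tchh. S100a3, a calcium-binding protein of the hair cuticle and a substrate of Padi3, rose by 1.13 ± 0.16 (SE, adjusted p = 0.000397, limma), from 9.49 in both newborn arrays to between 10.36 and 10.94.

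Tgm3 read 6.93 and 7.16 in newborn skin and 6.95, 8.26, 8.25, 8.70 and 8.69 in 30-day skin, a difference of 1.12 ± 0.36 (SE, adjusted p = 0.0591, limma). Only replicate 1 of 30-day skin lay at the newborn level, and without it Tgm3 rose by 1.43 (adjusted p = 0.00019, limma). Tgm1, the transglutaminase of the epidermal envelope, differed by 0.31 (adjusted p = 0.231). Of the genes of the granular layer, hornerin (Hrnr) fell by 2.96 (adjusted p = 1.15e-05), repetin (Rptn) fell by 0.96 (adjusted p = 0.0284), and filaggrin (Flg) differed by -1.55 (adjusted p = 0.0697, limma). For Flg, replicate 1 of 30-day skin read 10.23, beside 9.75 and 10.33 in newborn skin and 7.49 to 8.45 in the other 4 arrays. Without that replicate Flg fell by 1.99 (adjusted p = 0.000334, limma), and 4 of the 7 genes were higher and 3 lower. Without the dimmest 40% of probe sets 0 were lower, but that count covers only genes whose probe sets the filter kept. It does not show that the falls of Hrnr and Rptn were lost. Without replicate 2 of 30-day skin 1 was lower. All 7 were called lower in culture than in newborn skin, against 18.1% of all genes. Among them S100a3 was -4.66, Tchh -4.19, Hrnr -5.55 and Tgm3 -1.05 (log2, adjusted p = 9.23e-11, 4.32e-09, 3.26e-09 and 0.0378, limma).

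Of 19 measured regulators of the sheath and follicle, 6 were higher in 30-day skin and 1 lower, against 5.46% and 8.91% of all genes, with a median of 0.56. Foxq1, the gene of the satin hair mutant, rose by 1.64, and Hoxc13 and Foxn1, factors of hair differentiation, rose by 1.41 and 1.35 (adjusted p = 0.000844, 0.000724 and 0.000512, limma). Msx2, a homeobox factor of the hair matrix, rose by 1.04 (adjusted p = 0.00457). Trps1, a repressor of the GATA family, was the gene that fell, by 0.74 (adjusted p = 0.00329). Gata3 did not pass, at 7.53 and 7.63 in newborn skin and 8.05 to 9.01 in 30-day skin (0.92, adjusted p = 0.0971, limma), nor did Sp6 (1.06, adjusted p = 0.0691). Centred on epithelial junction genes, 4 were higher and 2 lower. Without replicate 1 of 30-day skin 9 were higher, Sp6 among them (1.37, adjusted p = 0.000113, limma). Over the other settings the count ran from 2 higher with close arrays averaged to 12 with array weights. Without replicate 1 of newborn skin 3 were higher, and without replicate 2 of newborn skin 0 were lower. Trps1 is named for being the 1 lower gene. In culture 9 of the 19 were lower than in newborn skin and 2 higher, against 18.1% and 17.3% of all genes, and with that centring 16 were lower and 2 higher. Trps1 was -3.83, Lhx2, a factor of follicle stem cells, -3.45 and Dlx3, a factor of hair and epidermis, -2.87 (log2, adjusted p at most 1.38e-07, limma). Gata3 differed by -0.88 and Ovol1 by -0.76 (adjusted p = 0.0609 and 0.109). The Notch ligand gene Jag1 and Sox9, a factor of the outer root sheath and bulge, rose in culture by 2.44 and 1.66 (adjusted p = 1.28e-05 and 0.000209).

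The neighbouring layers of the follicle were set beside the sheath. Of 12 measured hair shaft keratins 12 were higher in 30-day skin, by 0.98 to 2.82 with a median of 2.02, against 5.46% of all genes, whereas the 4 sheath keratins had a median of 0.76. With the same centring 11 of the 12 were called higher. The largest rises were those of Krt84 (2.82), Krt83 (2.46), Krt81 (2.44) and Krt86 (2.36), with adjusted p-values of at most 0.000305 (limma). Whether the shaft and sheath keratins differ in their rise was not tested. Krt25, Krt27 and Krt71 already stood at the 99.23 to 99.45 percentile in newborn skin, and the highest value of each skin array was 13.42 to 13.53. Krt72, at a mean of 9.47 in newborn skin, rose by 1.73. The part of the starting level in the size of the rises was not tested. Of 6 keratins of the companion layer and outer sheath, 2 rose and 2 fell, against 5.46% and 8.91% of all genes. Krt75, a keratin of the companion layer, rose by 1.06 ± 0.24 (SE, adjusted p = 0.0108), or by 1.27 without replicate 1 of 30-day skin (adjusted p = 1.08e-05, limma). Krt6a rose by 0.84 (adjusted p = 0.00777), while Krt6b fell by 3.90 and Krt16 by 1.34 (adjusted p = 4.34e-05 and 0.00469, limma). Krt79 differed by -0.47 and Krt17 by 0.26 (adjusted p = 0.274 and 0.509). In culture Krt75 was -4.59 and Krt79 -3.15 against newborn skin (adjusted p = 6.83e-09 and 3.92e-07), but Krt17, Krt6a and Krt16, which also mark activated keratinocytes, were higher by 1.23, 2.94 and 3.64 (adjusted p = 0.000418, 2.89e-08 and 1.56e-07, limma).

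**Figure D4:**
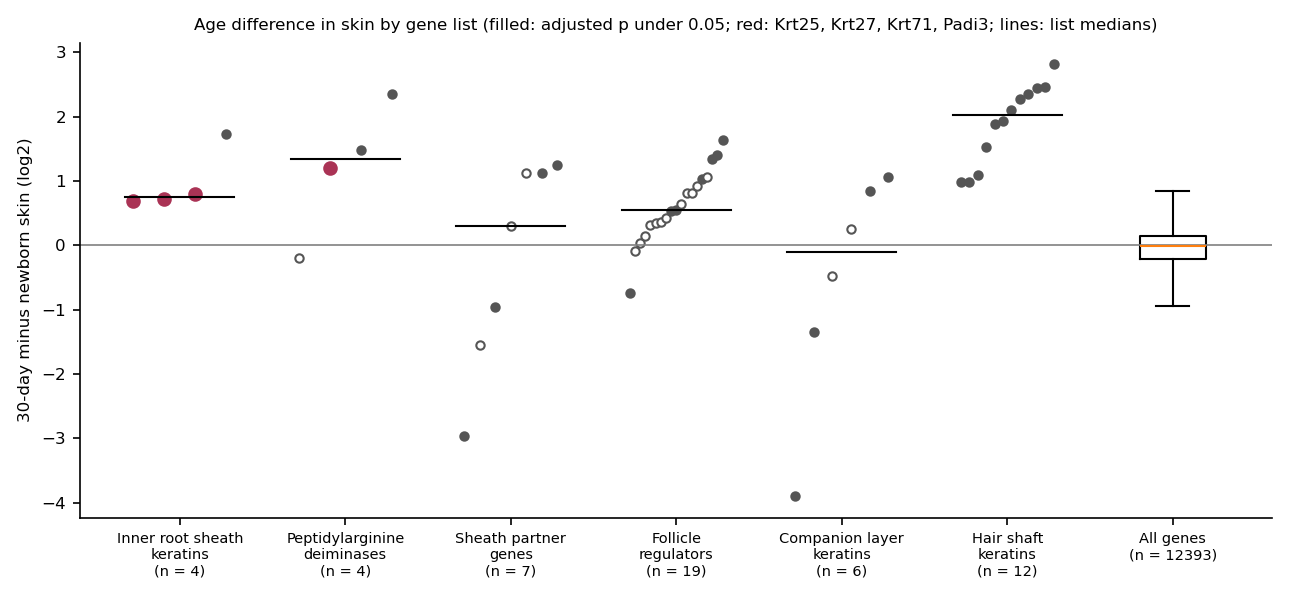
Log2 difference of 30-day from newborn skin for each measured gene (points, filled where the adjusted p is under 0.05) by gene list, with list medians as lines and, for all 12393 genes, a box of the quartiles with whiskers that span the central 95% of genes (-0.94 to 0.84). Sheath keratins lie between 0.69 and 1.73, below most hair shaft keratins at 0.98 to 2.82.

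Replicate 1 of 30-day skin stood differently in these lists. It lay below all 4 other 30-day arrays for Krt27, Krt71 and Padi3, at -0.89, -0.82 and -1.29 from their mean, and for Krt25 at -0.14. The same held for Krt72 (-1.53), Padi1 (-1.26), Padi4 (-1.13), Padi2 (-0.31) and Tgm3 (-1.53). It held for 4 of 4 sheath keratins, 4 of 4 deiminases and 5 of 6 companion layer keratins, but for 2 of 12 hair shaft keratins, 9 of 19 regulators and 3 of 7 partner genes. Over all genes this array was the lowest of the 5 in 28.2%. Among epithelial junction genes it was the lowest in 13 of 19. The part of the RNA quality of this sample in these values was not tested.

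**Figure D5:**
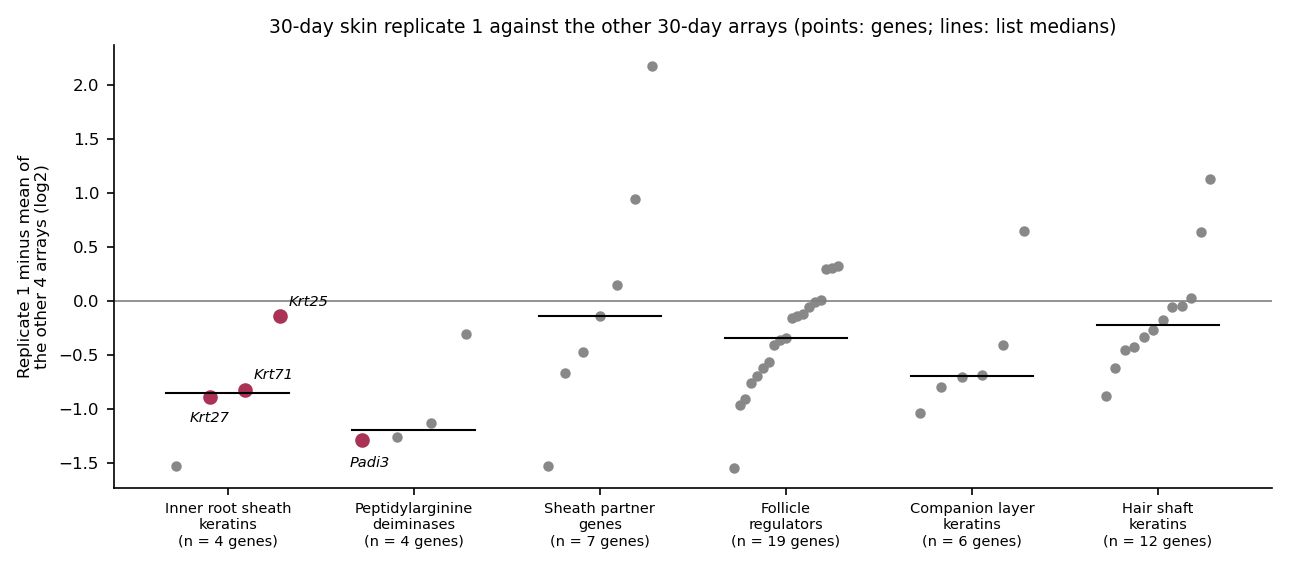
Value of 30-day skin replicate 1 minus the mean of the other 4 30-day arrays (log2) for each gene (points) by list, with list medians as lines and Krt25, Krt27, Krt71 and Padi3 in red. The medians are -0.85 for sheath keratins and -1.19 for deiminases against -0.22 for hair shaft keratins, and Krt25 lies at -0.14.

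Within culture, mixed-strain and FVB samples were compared, since the labels give both. Krt25 read 4.12 and 4.20 in mixed-strain and 4.46, 4.59 and 4.59 in FVB cultures, a difference of -0.39 ± 0.11 (SE, adjusted p = 0.0495, limma). These values lie inside the range of genes restricted to other organs, and the call was lost without any single culture (adjusted p = 0.0628 to 0.318). Krt27 differed by -0.16 (95% interval -0.64 to 0.31), Krt71 by 0.13 (-0.35 to 0.60) and Padi3 by -0.11 (-0.80 to 0.58), with adjusted p-values of 0.704, 0.775 and 0.872. The 1 call of 4, a lower value, stands against 5.3% of all tested probe sets. Tchh was lower in mixed-strain cultures as well, at -0.66, and Padi4 higher, at 1.03 (adjusted p = 0.00906 and 0.0428, limma). The call on Padi4 was lost without any single culture (adjusted p = 0.0654 to 0.34), and that on Tchh without culture 1 or 2 (adjusted p = 0.0865 and 0.0878). Markers of other cells differed between these cultures too, where 370 of all 12393 genes were called higher and 775 lower in mixed-strain samples. All 4 melanocyte genes were higher in mixed-strain cultures (Tyr 1.92, Dct 2.15, Tyrp1 2.29 and Pmel 1.97), as were 3 of 6 fibroblast genes (Col1a2 1.36, Col3a1 0.92 and Pdgfra 0.52). The suprabasal keratins Krt1 and Krt10 were lower, at -2.29 and -1.18. Their part in the strain differences was not tested.

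The genes whose profiles over the 12 arrays were most like those of the 4 genes were found from values centred on each probe set's own mean. Likeness was the root mean square difference, on the log2 scale. For Krt27 the closest of all genes was Krt71 (0.26) and the next was Krt25 (0.38). Outside the 4 genes, Krt25 was closest to Car3 (0.34), Krtap8-1 (0.42) and Tnnc2 (0.55). Krt27 was closest to Krtap8-1 (0.45), Tnnc2 (0.48) and Apoe (0.50), and Krt71 to Apoe (0.36), Mt4 (0.45) and Myl1 (0.45). Padi3 ranked 77th to 82nd among the genes nearest to the 3 keratins. Seen from Padi3, Krt71 ranked 811th, Krt27 1409th and Krt25 7572nd. Outside the 4 genes, Padi3 was closest to Anxa9 (0.28), Bambi (0.30) and Krt23 (0.31). Pearson's r of these nearest genes was 0.988 to 0.997, but the arrays fall into separate groups of culture and skin, a gap that all these genes share. Car3 is a gene of fat and muscle, and Tnnc2 and Myl1 are genes of muscle, tissues whose marker genes were low in culture.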

How the data were processed

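The deposited table held log2 expression values per probe set, made by the authors with RMA, per the submitters' processing notes. RMA as usually run corrects background, equalises the distributions of the arrays and summarises probes, which can compress differences of dim probe sets. Its version is not given in the sources used here. Without detection calls, precision rests on how many arrays a group has. Of 22690 probe sets, 64 controls were left out. By the platform annotation 20380 probe sets had 1 symbol, 691 had several and 1555 had no symbol. For lists, each of 12393 genes was represented by its probe set with the highest mean.

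The test was limma's (version 3.58.1, R 4.3.3, lmFit and eBayes, two-sided), all 12 arrays in 1 fit with a mean per group, and Benjamini-Hochberg adjustment over 22626 probe sets (threshold 0.05). For the strain comparison the cultures were split by strain, giving 4 means. Simulated arrays of these 22626 probe sets gave recoveries of 23.9%, 82.1% and 100% for age differences of 0.5, 1 and 2. They had independent normal noise, and 67, 67 and 66 probe sets were changed by these sizes. The real age comparison called more, 1074 higher and 1666 lower, so these recoveries do not give its power. The 4 genes and the lists were chosen with earlier results of these data known. Named were all measured sheath keratins, deiminases and partner genes, and of other lists up to 4 called genes and 2 not called with the largest change, plus single genes named with their reason. Genes most like each member were the 3 nearest. Alternatives covered normalisation, centring, filters, thresholds, variance models, strain, the replicate number as a block and leaving out each array. Averaging arrays of 1 group that differed by a root mean square under 0.21 was added after seeing the data, as was the absolute difference as the statistic of the exact test. Figures used Python 3.11.15 with matplotlib 3.10.9.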

Additional observations from a re-analysis of the deposited data

Results flagged for a closer look

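In 30-day skin, replicate 1 stood apart from the other 4 arrays for Krt27, at 11.80 against 12.61 to 12.76, and for Padi3, at 9.75 against 10.82 to 11.25. The gap to the nearest array was 0.843 and 0.712 of the range of the group, above the critical value of 0.71 for 5 samples, which Padi3 passed narrowly. For Krt71 the gap was 0.65 of the range and for Krt25 0.09. The criterion was examined for each gene in culture and in 30-day skin, 8 sets of 5 arrays in all, and 2 met it. Chance alone gives about 1 in 20 for a single set. The 8 sets share their arrays and both flags came from replicate 1, so they are not independent and the count is not set against that rate.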

How the results depend on the processing

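The lower values in culture kept their direction and calls for all 4 genes under every alternative run, 76 against newborn skin and 88 against 30-day skin. The higher values in 30-day skin kept their direction in all 76 and their call or threshold side in 45. In place of 4, only 1 gene was called under centring on epithelial junction genes (Padi3), and 1 (Krt25) with a threshold of 0.01, only the arrays compared, the strain covariate or the replicate block. For Krt25 the strain covariate rests on culture values inside the range of genes restricted to other organs. With close arrays averaged 0 were called, and leaving out single arrays gave 0 to 4. The strain difference of Krt25 lost its call (0 in place of 1) under that centring, without the dimmest 40% of probe sets, at 0.01, with the trend and robust variance, with close arrays averaged and without any 1 culture.

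Deviations of same-numbered arrays from their group means correlated between -0.28 and 0.20, which gave no sign of pairing by replicate number. In newborn skin the deviations of the 2 arrays mirror each other, so these correlations cannot show whether samples were paired. With numbers 1 and 2 as pairs the difference in rise turned to 0.13 for Krt25 minus Krt71 and 0.012 for Krt25 minus Padi3, from -0.08 and -0.48. Leaving out single arrays moved Krt25 minus Krt27 between -0.12 and 0.077, from 0.03, with a sign change without replicate 1 of 30-day skin or replicate 1 of newborn skin. The cause of these changes was not tested.

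Centred on epithelial junction genes, the median of all genes was -0.43 for the age comparison, -0.55 for culture against newborn skin and -0.13 against 30-day skin. Over all genes the age comparison called 677 higher and 1104 lower, 236 and 5900 under epithelial centring, 1232 and 1897 with array weights, 322 and 552 at 0.01, 424 and 690 with the replicate block, and 112 and 201 with close arrays averaged. With the strain covariate 660 were lower, and without a newborn array 207 to 259 were higher and 362 to 513 lower. Culture against newborn skin gave 2141 higher and 2245 lower, 533 and 8198 under that centring and 1126 and 1430 with close arrays averaged, and against 30-day skin 3238 higher became 2045 under it. Without replicate 1 of newborn skin, 1318 were higher in culture than in newborn skin. The strain comparison called 370 higher and 775 lower, 169 and 305 under that centring, 167 and 271 at 0.01, 1108 and 1635 with array weights, 44 and 44 with close arrays averaged, and 600 higher with only the arrays compared. Without culture 1 it called 106 and 133, without culture 2 127 and 210, and without culture 4 407 lower.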
